A study of Homo sapiens with 32 samples.

Results

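The phosphodiesterases and one neighbouring transcript described here are PDE4D, PART1, PDE4A, PDE4B, PDE4C, PDE3B, PDE7A, PDE8A, PDE8B and PDE9A, 10 genes in all. At gene level single symbols name 13356 genes, and 9 of the 10 are among them, PDE4C sharing its cluster with CIST1. Members were taken wherever the array annotation carried one of these symbols. This gave 10 transcript clusters of 16309 and 272 probesets of 620335. The cells were LNCaP, an established androgen-responsive human prostate cancer line, so every array shares 1 line and its genotype. All cells were moved to medium with charcoal-stripped serum for 72 hours (steroid-deplete, 4 arrays), and the treated cells then received 10 nM R1881, a synthetic androgen, for 24 hours (R1881, 4 arrays). Per the methods, the control cells were kept without R1881 over the same 24 hours. RNA was hybridised to 8 Human Exon 1.0 ST Arrays, which carry a gene-level value for each transcript cluster and an exon-level value for each probeset, a small group of probes within 1 stretch of exon. Unless stated otherwise, values are deposited RMA values on the log2 scale, and a change is the mean of R1881 minus the mean of steroid-deplete. The methods describe the experiment as done in quadruplicate and do not say how separate the 4 cultures were, so p-values measure the spread between these arrays, which may be partly technical.

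Cyclic AMP is made by adenylyl cyclases and broken down by phosphodiesterases, which set how long and where in the cell the signal lasts. The PDE4 enzymes are specific for cAMP, and each PDE4 gene gives rise to long and short forms from alternative promoters; the long forms carry upstream conserved regions through which protein kinase A can act on the enzyme, and the short forms lack the first of these. PART1 is a prostate androgen-regulated transcript, classed as non-coding, that lies on chromosome 5 beside the upstream end of PDE4D. PDE3B is a cAMP phosphodiesterase inhibited by cGMP and known for its role in insulin action. PDE7A, PDE8A and PDE8B hydrolyse cAMP with high affinity, and PDE9A is specific for cGMP.

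Annotated start sites show how the neighbours are arranged. RefSeq windows on GRCh38.p14, running from 250 bases before to 50 bases after a start, were read for 7 of the 10 members (31 windows), of which 8 belonged to PDE4D and 1 to PART1. PDE3B, PDE7A and PDE9A have no window here. The most distal PDE4D start (minus strand) lay 8354 bases past the PART1 start (plus strand), so that transcripts from these starts run toward each other on opposite strands. The windows of these neighbouring starts and of the next PDE4D start are printed because the changes below were largest at this end of the probeset order. Capitals mark AGAACA, the half-site of the androgen response element, searched on both strands (TGTTCT on the printed strand is the same half-site read from the other).
PART1, chr5:60487682-60487981, plus strand: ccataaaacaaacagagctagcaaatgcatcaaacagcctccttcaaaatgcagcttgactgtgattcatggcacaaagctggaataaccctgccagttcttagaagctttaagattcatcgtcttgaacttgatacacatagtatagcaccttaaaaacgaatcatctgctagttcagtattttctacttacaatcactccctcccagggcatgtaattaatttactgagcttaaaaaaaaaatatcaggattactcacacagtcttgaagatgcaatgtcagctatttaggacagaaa
PDE4D, chr5:60496237-60496536, minus strand: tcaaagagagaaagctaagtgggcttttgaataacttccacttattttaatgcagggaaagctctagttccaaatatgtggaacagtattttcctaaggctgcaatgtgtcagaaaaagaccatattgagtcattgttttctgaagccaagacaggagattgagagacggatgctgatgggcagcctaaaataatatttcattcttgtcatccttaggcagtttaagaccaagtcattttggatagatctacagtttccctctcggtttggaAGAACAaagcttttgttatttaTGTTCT
PDE4D, chr5:60372614-60372913, minus strand: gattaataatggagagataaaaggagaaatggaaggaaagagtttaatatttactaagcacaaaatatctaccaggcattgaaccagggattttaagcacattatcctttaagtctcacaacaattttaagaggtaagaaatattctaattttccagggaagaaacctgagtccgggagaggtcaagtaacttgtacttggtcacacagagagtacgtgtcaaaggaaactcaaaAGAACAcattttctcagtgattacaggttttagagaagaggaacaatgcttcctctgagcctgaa
The PART1 window held no half-site. The most distal PDE4D window held 2 in opposite orientations, 16 bases apart, and the next PDE4D window held 1, while the other 6 PDE4D windows held none. Of the 31 windows, 4 held at least 1 half-site, against 14.8% of all 35116 windows in the table, and 1 held 2 or more, against 1.81%. The full element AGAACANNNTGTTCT was in none of the 31 windows and in 0.00285% of all windows. The cAMP response element TGACGTCA was in 1 window, of PDE4A, against 1.85% of all windows, and it overlaps its own half-site TGACG, which was in 24.6% of all windows. A match is a stretch of letters and not a measured binding site.

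The study's own RT-PCR assay read the alternative upstream ends of PDE4D with forward primers in exons 2 and 3 and a common reverse primer in exon 7, shown here because they mark where its transcripts were distinguished.
Exon 2, forward: ttggaacaagctgacttgaaaa
Exon 3, forward: taatccgcattgtccaaacc
Exon 7, reverse: tgtggacaaaatttgcttgg
None of these primers lay in the 8 promoter windows of PDE4D, on either strand. The arrays gave no RT-PCR values, and which probesets share an exon with a primer was not analysed here.

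At gene level PART1 rose 7.15-fold with R1881, PDE4D and PDE3B were lower by less than 2-fold, and the other 7 clusters moved by at most 0.10 on the log2 scale in either direction. A cluster was called at an adjusted p under 0.005 (limma, Benjamini-Hochberg over all clusters) and at least 2-fold. By this rule 1.94% of all clusters were called higher and 2.04% lower. Of the 10 members, 1 was called higher (PART1) and 0 lower. At an adjusted p under 0.05 with no limit on the fold, which 10.5% of clusters passed higher and 19.8% lower, 1 member was higher and 2 were lower. The groups of arrays did not overlap for 3 of the 10 members, against 29.8% of all clusters, so the lower values of PDE4D and PDE3B are of a kind common on these arrays.

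**Figure D1:**
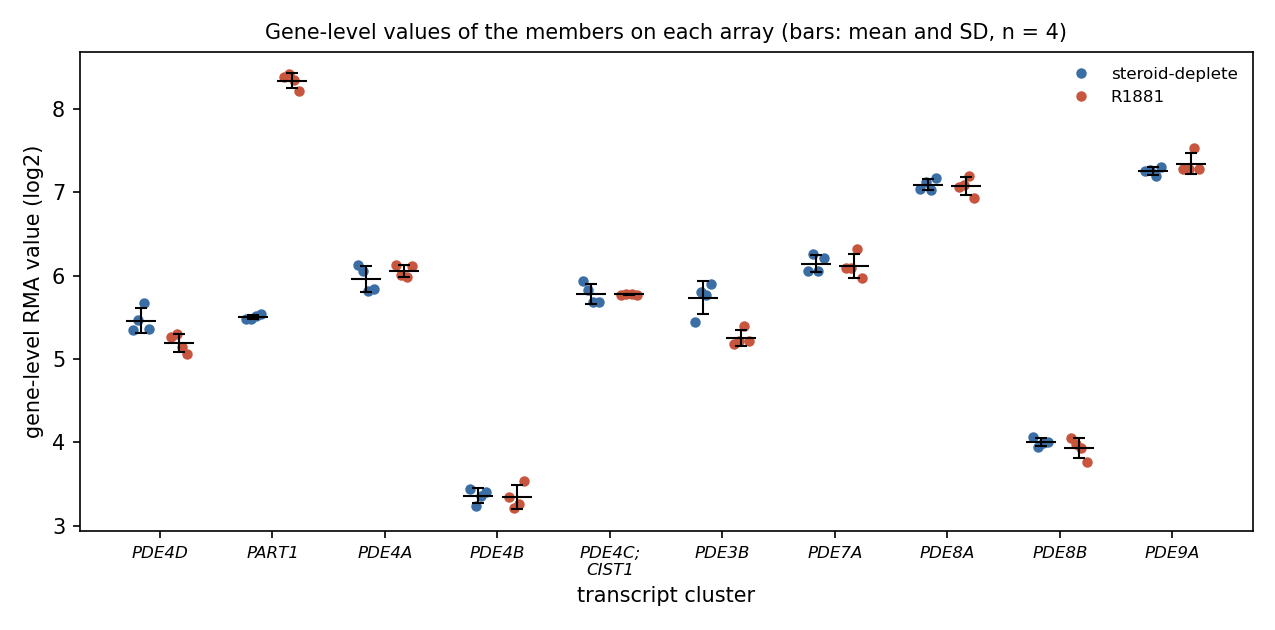
Gene-level RMA values (log2, vertical axis) of the 10 member clusters on each of the 8 arrays, steroid-deplete in blue and R1881 in red; bars give the mean and SD of 4 arrays. PART1 moved from 5.50 to 8.34, while PDE4D and PDE3B were lower without overlap and the other clusters overlapped.

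PART1 read 5.48, 5.48, 5.51 and 5.54 on the steroid-deplete arrays. After R1881 it read 8.38, 8.42, 8.35 and 8.22. The replicates were tight in both media, and every R1881 array stood far above every steroid-deplete array. The change was 2.84 (SE 0.08, 95% interval 2.67 to 3.00, adjusted p = 1.3e-11, limma), and it was called under every alternative run.

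PDE4D, the cAMP-specific enzyme of the group that lies next to PART1, read 5.34, 5.46, 5.67 and 5.36 on the steroid-deplete arrays. The R1881 arrays read 5.27, 5.30, 5.15 and 5.06. The highest R1881 array lay just under the lowest steroid-deplete array, so the groups were apart by little. The change was −0.27 (SE 0.09, 95% interval −0.47 to −0.06, adjusted p = 0.0491, limma). The size of this decrease depended on the summary of the probes: the deposited Iter-PLIER values of the same arrays, on a linear scale, were 185, 242, 214 and 230 in steroid-deplete medium and 98.7, 76.6, 78.8 and 78.5 after R1881. On log2(value + 16) that is a change of −1.24 (adjusted p = 1.2e-05, limma), which is past the call threshold. Lower calls were more common with these values, at 924 of all 16309 clusters against 333 with RMA values. Centring each array on its median left −0.16 (adjusted p = 0.171) on the RMA scale.

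PDE3B, the cGMP-inhibited enzyme, read 5.45, 5.81, 5.77 and 5.90 in steroid-deplete medium. With R1881 the values were 5.18, 5.21, 5.39 and 5.22. All R1881 arrays were below all steroid-deplete arrays. The change was −0.48 (SE 0.10, 95% interval −0.70 to −0.26, adjusted p = 0.0024, limma), under the 2-fold limit, and on Iter-PLIER values it was −1.04 (adjusted p = 2.2e-04), past it.

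The PDE4 paralogs did not pass. The change was 0.10 (SE 0.09, adjusted p = 0.472, limma) for PDE4A and −0.02 (SE 0.09, adjusted p = 0.903) for PDE4B, a dim cluster at the 9.36th percentile of all clusters. The only cluster with the PDE4C symbol also carried CIST1, so its change of −0.00 (SE 0.08) belongs to no single gene. The high-affinity cAMP enzymes gave −0.03 (SE 0.09) for PDE7A, −0.02 (SE 0.08) for PDE8A and −0.07 (SE 0.08) for PDE8B, and the cGMP enzyme PDE9A gave 0.09 (SE 0.08), all with intervals that include 0. The intervals of these 7 clusters lay between −0.25 and 0.30, which bounds a change at gene level for RMA values only and says nothing of single exons. PDE8B was dim like PDE4B, at the 14.9th percentile of all clusters, and for dim clusters the bounds hold for the array value only. On Iter-PLIER values PDE8B was at −0.29 (adjusted p = 0.367, limma), outside these bounds.

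Whether PDE4D moved differently from each other member was tested on the per-array difference between the clusters (exact two-sided permutation test, 4 against 4 arrays, smallest possible p = 0.0286, 9 pairs). The change of PDE4D was 3.10 lower than that of PART1 (−3.10, 95% interval −3.29 to −2.91, exact p = 0.0286, adjusted over the 9 pairs 0.129). Against PDE9A the difference was −0.35 (95% interval −0.68 to −0.02, exact p = 0.0286, adjusted 0.129), and against PDE4A −0.36 (95% interval −0.74 to 0.01, exact p = 0.0571). The other cAMP enzymes gave differences between −0.26 and 0.22, with PDE3B alone on the positive side. No adjusted p was under 0.05, not even that for PART1, so a p this coarse says little about the paralogs in either direction. On Iter-PLIER values the differences were larger, −4.08 from PART1 and −0.94 (PDE8B) to −1.43 (PDE9A) from the members other than PART1 and PDE3B, with adjusted exact p of 0.0514 to 0.0643.

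At exon level the PDE4D picture was not uniform: probesets near one end of the identifier order were higher with R1881, the next 3 were level, the 3 after those were strongly lower, and runs further on were moderately lower or level. PDE4D has 41 annotated probesets. Called at an adjusted p under 0.005 (limma, adjusted over all 620335 probesets) and at least 2-fold, 1 was higher and 1 lower, against 0.679% and 0.657% of all probesets. At an adjusted p under 0.05, 2 were higher and 7 lower, against 1.65% and 2.4%. The groups did not overlap for 2 higher and 12 lower probesets of 41, against 11.4% of all probesets in either direction. The median change was −0.33, beside −0.02 over all probesets.

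Probesets are ordered by identifier, since no probe position is used. Identifiers followed chromosome order in 255 of 255 neighbouring pairs of minus-strand genes on chromosome 5, and in 99.4% of such pairs over all chromosomes, and PDE4D lies on the minus strand with PLK2 below it and DEPDC1B above it. The first probeset is therefore read as the downstream end of PDE4D and the last as the upstream end, toward PART1; the order within the gene itself was not checked. The runs below were delimited after their values were seen and are a description.

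**Figure D2:**
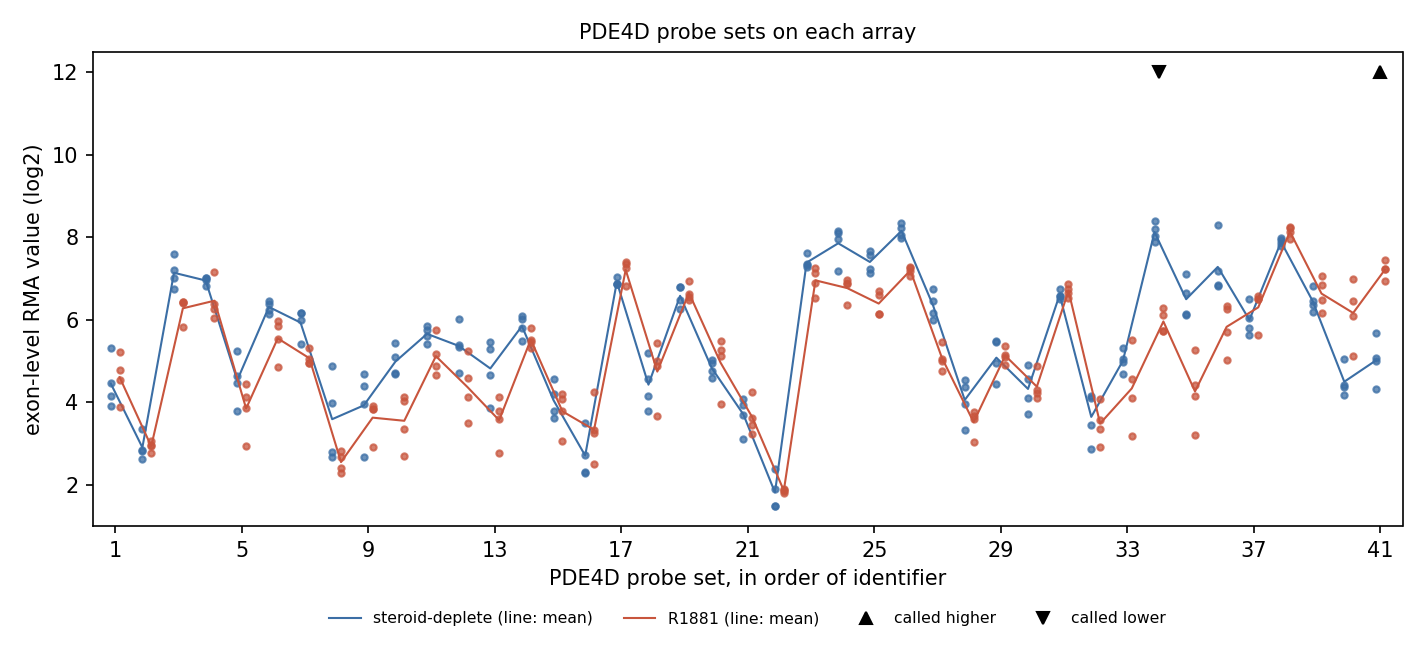
Exon-level RMA values (log2) of the 41 PDE4D probesets in order of identifier, with 1 point per array and lines through the group means; triangles mark called probesets. The red R1881 line lies under the blue line at positions 34 to 36 and above it at 40 and 41.

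The upstream-most annotated probeset, 2858433, read 4.32, 4.99, 5.67 and 5.07 on the steroid-deplete arrays. After R1881 it read 7.22, 7.45, 7.22 and 6.94. All R1881 arrays were above all steroid-deplete arrays by more than 1 log2 unit. The change was 2.20 (SE 0.28, adjusted p = 0.0012, limma), and on Iter-PLIER values 1.76 (adjusted p = 1.4e-04). Leaving out 1 array at a time kept the change between 1.96 and 2.41 but took the adjusted p to between 0.001 and 0.0058, which passed over the 0.005 limit when R1881 replicate 1, 2 or 3 was removed, or replicate 2 of the steroid-deplete arrays.

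Its neighbour 2858384 read 4.41, 5.04, 4.17 and 4.36 in steroid-deplete medium. The R1881 arrays gave 5.13, 6.08, 6.99 and 6.45. R1881 replicate 1 lay just above the highest steroid-deplete array and the others well above. The change was 1.67 (SE 0.36, adjusted p = 0.0280, limma), not called.

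In the same interval of identifiers the array holds probesets with no gene symbol. Between the first and last PDE4D probeset there were 142 of them and none of another gene. Past the 39th PDE4D probeset there were 34, of which 12 were at least 2-fold higher and 0 at least 2-fold lower, with a median change of 0.74. Of the 34, 2 were called higher, against 0.679% of all probesets, and 8 were higher at an adjusted p under 0.05, against 1.65%. Among the 108 before that point 0 were called (9 at an unadjusted p under 0.05), 1 was at least 2-fold higher, 1 at least 2-fold lower, and the median was 0.01. These were looked at after the annotated ones, and the cut at the 39th probeset was set with the annotated values known. The largest, 2858407, read 2.94, 3.42, 4.21 and 2.28 in steroid-deplete medium and 6.34, 6.29, 6.10 and 6.15 after R1881, a change of 3.01 (adjusted p = 7.0e-04, limma). The other called one, 2858423, changed by 2.09 (adjusted p = 0.0027, limma). It was dim, at the 26.6th percentile of all probesets, with 1.78 to 2.59 in steroid-deplete medium. PART1, which rose in the same comparison, starts nearby on the opposite strand, and its part in these values was not tested.

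Just downstream of these, positions 37 to 39 (2858368 to 2858371) were well measured, at the 72.3rd to 90.6th percentile of all probesets, and level, with changes of 0.18 to 0.30 and overlapping groups. The next run, positions 34 to 36, was the lowest of the gene. Probeset 2858345 read 7.88, 8.02, 8.40 and 8.19 on the steroid-deplete arrays. The treated arrays read 5.71, 6.11, 5.73 and 6.28. All R1881 arrays were more than 1 log2 unit under all steroid-deplete arrays. The change was −2.17 (SE 0.21, adjusted p = 2.5e-04, limma), it was −2.40 on Iter-PLIER values, and it was called with any 1 array left out.

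Probeset 2858346 read 6.13, 6.11, 7.10 and 6.65 in steroid-deplete medium. With R1881 it was at 3.21, 4.15, 5.26 and 4.42. The groups did not overlap, and the R1881 arrays spread over more than 2 log2 units. The change was −2.24 (SE 0.40, adjusted p = 0.0094, limma), past the limit on the fold but not that on p. On Iter-PLIER values it was −1.74 with an adjusted p of 9.1e-04 (limma), a call. The third probeset of the run, 2858347, changed by −1.45 (SE 0.38, adjusted p = 0.0649).

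Further downstream came 6 probesets (positions 28 to 33) with a median change of −0.06 and overlapping groups, 3 lower and 3 higher. Their changes ran from −0.67 to 0.10, so the lowest were as large as some in the runs described as lower. Positions 23 to 27 were lower in all 5 probesets, without overlap, by −0.43 to −1.27, and 4 of the 5 had an adjusted p under 0.05. The largest of these, 2858222, read 6.16, 6.46, 6.75 and 5.997 in steroid-deplete medium and 5.47, 5.06, 4.75 and 5.01 after R1881, a change of −1.27 (SE 0.24, adjusted p = 0.0121, limma). The 8 probesets at positions 15 to 22 were level, with changes of −0.27 to 0.63.

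All 12 probesets at positions 3 to 14 were lower, by −0.30 to −1.43, with 4 free of overlap and 1 at an adjusted p under 0.05. That one, 2858148, read 4.69, 5.10, 5.44 and 4.71 in steroid-deplete medium and 4.13, 2.69, 4.03 and 3.35 after R1881 (−1.43, SE 0.33, adjusted p = 0.0354, limma). The lowest other value in the run was that of 2858151, with −1.25 (SE 0.38, adjusted p = 0.115). Among the level probesets the highest changes were 0.63 for 2858156, 0.32 for 2858167, 0.30 for 2858368 and 0.29 for 2858166, none of them near the threshold.

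Averaged over the 12 probesets of positions 3 to 14, each steroid-deplete array lay between 5.06 and 5.71 and each R1881 array between 4.18 and 4.85. Over positions 23 to 27 the array means were 7.22 to 7.61 against 6.33 to 6.56. Both ranges were apart, but single probesets were not lower on every array. At 2858140, in positions 3 to 14, R1881 replicate 1 read 7.15, above every steroid-deplete array (at most 7.01). These means describe runs chosen from the same values, so ranges that lie apart follow in part from that choice. In bulk RNA fewer transcribing cells and less RNA per cell cannot be told apart.

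**Figure D3:**
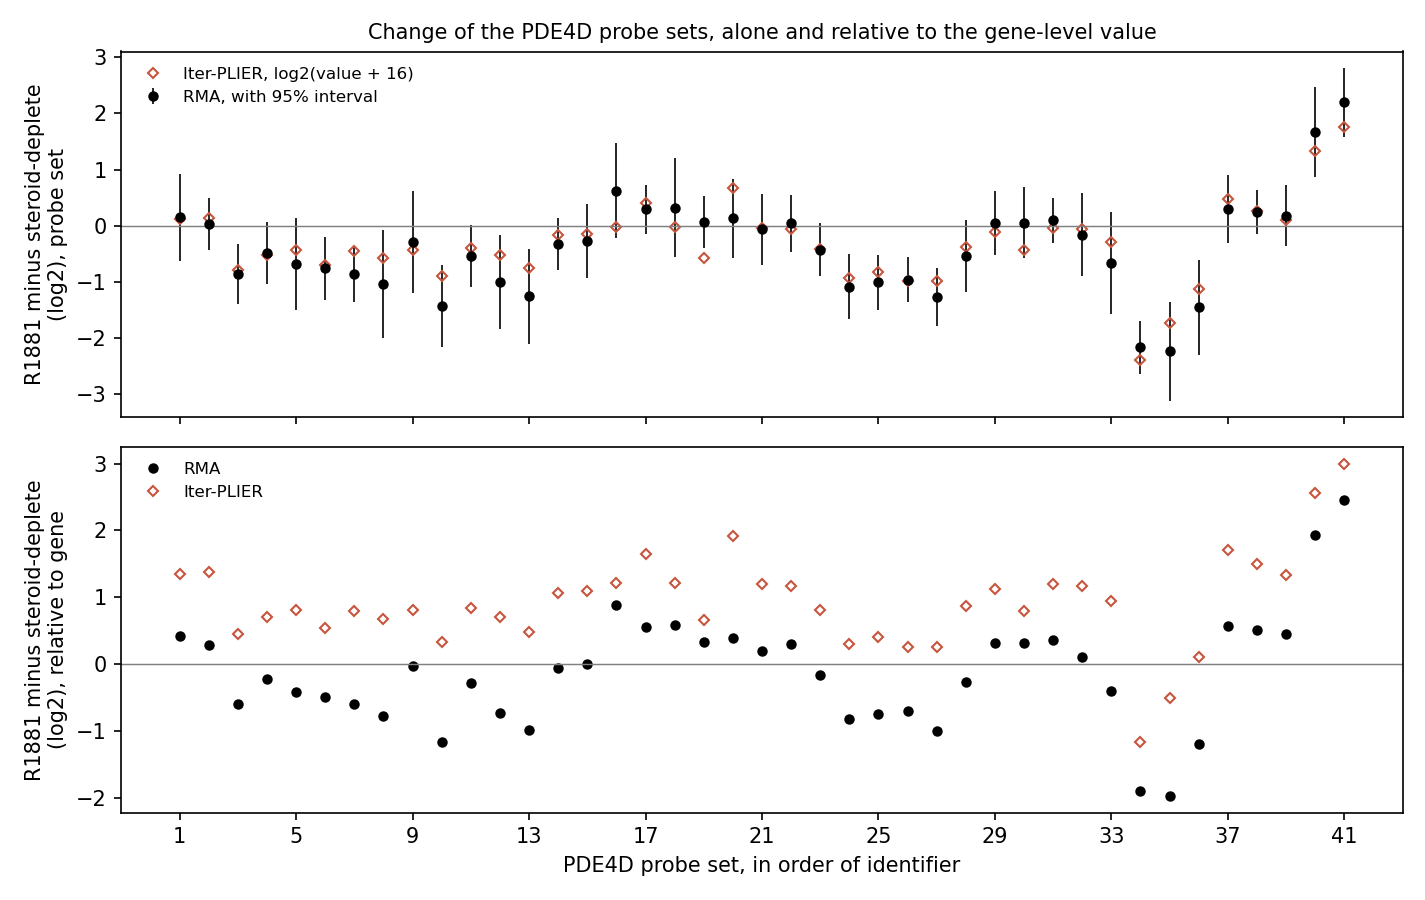
Upper panel, change of each PDE4D probeset (R1881 minus steroid-deplete, log2) for RMA with its 95% interval and for Iter-PLIER with a pseudocount of 16; lower panel, the same after the gene-level change is taken off. The shape along the gene is alike in both summaries, while the lower panel is shifted upward for Iter-PLIER because its gene-level change was −1.24 and not −0.27.

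A change relative to the gene is the probeset value minus the gene-level value on each array, tested over 180771 probesets with 1 symbol at both levels. Of 41 PDE4D probesets 1 was called higher, against 0.0874% of those tested, and 1 lower, against 0.0924%. Probeset 2858433 rose by 2.46 relative to the gene (SE 0.21, adjusted p = 0.0014, limma), and 2858345 fell by 1.90 (SE 0.19, adjusted p = 0.0025). At the methods' p of 0.001 or less with no limit on the fold, which 0.743% of probesets passed higher and 0.648% lower, 2 were higher and 3 lower. Leaving out 1 array took the adjusted p of 2858433 to between 0.0032 and 0.0084 and that of 2858345 to between 0.0029 and 0.0132, so that most of these repeats lost the call without a change of direction. With Iter-PLIER at both levels, 39 of the 41 differences were positive with a median of 0.85, 8 were called higher and 0 lower, and 2858345 was at −1.16 (adjusted p = 0.0315). The share of all tested probesets called with these values was not analysed here, and the shares above are for RMA values.

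PART1 was called at exon level along one stretch and was level outside it. Of its 15 probesets 8 were called higher and 0 lower, against 0.679% and 0.657% of all probesets. These 8 were consecutive in identifier order (2811147 to 2811155). The gene lies on the plus strand, where identifiers followed chromosome order in 266 of 268 neighbouring pairs on chromosome 5, so the stretch is read as lying toward the upstream end. The first probeset and the last 6 were level, with changes of −0.02 to 0.53, and were dim, at the 9.90th to 44.8th percentile of all probesets.

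**Figure D4:**
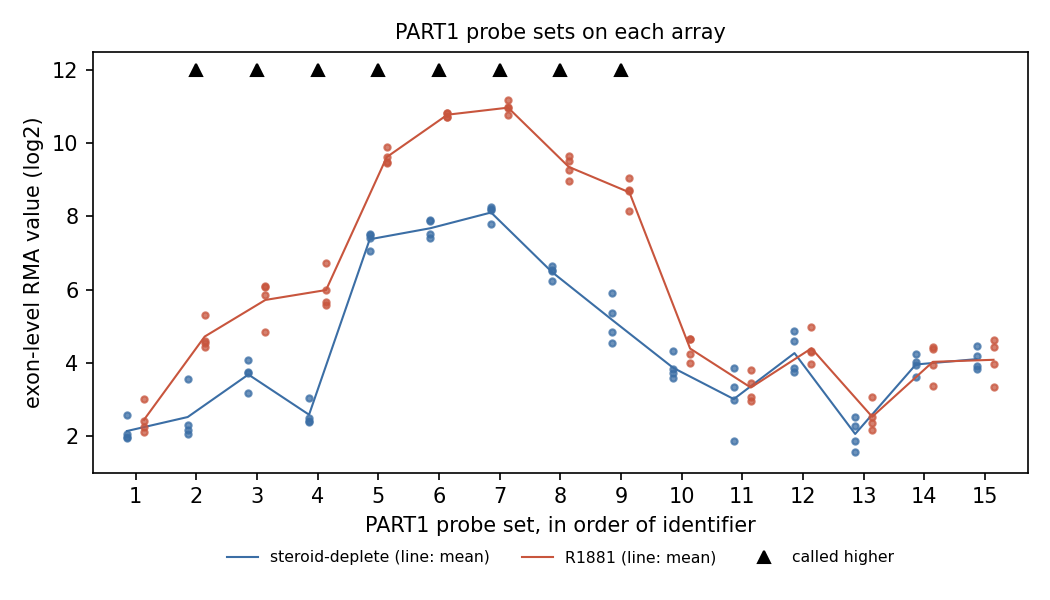
Exon-level RMA values (log2) of the 15 PART1 probesets in order of identifier, 1 point per array, with lines through the group means and triangles at called probesets. R1881 and steroid-deplete arrays are apart at positions 2 to 9 and overlap at the others.

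The brightest PART1 probeset, 2811152, read 7.79, 8.21, 8.18 and 8.25 in steroid-deplete medium. The R1881 values were 10.95, 11.17, 10.76 and 10.99. The groups stood more than 2 log2 units apart, with a change of 2.86 (SE 0.20, adjusted p = 2.9e-05, limma). The largest change was that of 2811155, which went from 5.37, 4.85, 4.55 and 5.91 to 9.04, 8.73, 8.70 and 8.15 (3.49, SE 0.31, adjusted p = 1.3e-04). The next were 2811149 with 3.40, 2811151 with 3.10, 2811154 with 2.86 and 2811150 with 2.24, each with an SE between 0.19 and 0.28. The smallest of the 8 changes was 2.03.

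Outside the stretch, 2811171 changed by −0.02 (SE 0.29), 2811170 by 0.07 (SE 0.27), 2811168 by 0.13 (SE 0.31), 2811146 by 0.31 (SE 0.25), 2811163 by 0.31 (SE 0.39), 2811169 by 0.47 (SE 0.27) and 2811161 by 0.53 (SE 0.24). All 7 had groups that overlapped. Relative to the gene, 6 of these 7 were called lower, against 0.0924% of the probesets tested. The relative changes of these 6 were −2.31 (2811161) to −2.86 (2811171), their own changes being small beside the gene-level change of 2.84. The call relative to the gene was lost for 4 of the 6 in every repeat without 1 array and for the other 2 in 7 of 8 repeats. With the median of the PART1 probesets as the gene value, 0 were called lower and 2 higher, and these 6 changes were −0.34 to −0.88.

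The paralogs and other phosphodiesterases gave 0 calls in either direction among the 216 probesets of their 8 genes (limma). Over all probesets 0.679% were called higher and 0.657% lower, so few calls would fall among 216. At an adjusted p under 0.05, 0 were higher and 2 lower, both of PDE3B, against 1.65% and 2.4% of all probesets. An unadjusted p under 0.05 was found for 15, and the smallest adjusted p was 0.0056. Iter-PLIER values of the same probesets gave 1 call, where 6105 of all 620335 probesets were called higher and 6989 lower with these values. Relative to the gene 182 could be tested, with 0 called, 17 at an unadjusted p under 0.05 and 1 at p of 0.001 or less, a PDE3B probeset that was lower. All PDE4C probesets were left out of that test, because their gene-level cluster carries a second symbol.

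**Figure D5:**
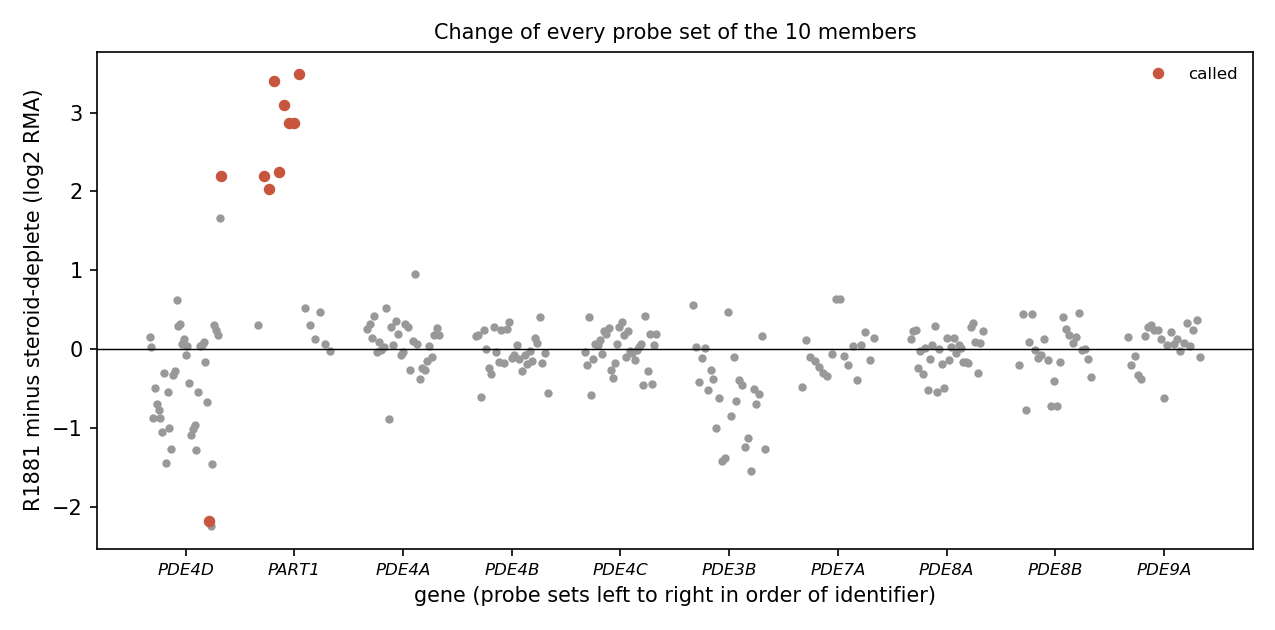
Change of every probeset of the 10 genes (R1881 minus steroid-deplete, log2 RMA), in order of identifier within each gene, called probesets in red. Calls occur in PDE4D (1 higher, 1 lower) and PART1 (8 higher) and in none of the other 8 genes.

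PDE3B was lower in 21 of its 26 probesets, with a median change of −0.51, and 6 of them were at least 2-fold lower. Probeset 3321577 had the smallest adjusted p, 0.0056, with 7.39, 7.55, 7.34 and 7.64 in steroid-deplete medium and 6.04, 6.03, 6.63 and 6.17 after R1881, a change of −1.26. The largest decrease was that of 3321567, −1.54 (SE 0.34, adjusted p = 0.0304, limma), and the highest change was 0.56 for 3321521 (adjusted p = 0.488). The lower values were spread over positions 9 to 26, while positions 2, 4 and 5 were near 0.

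In PDE4A (31 probesets) the changes ran from −0.88 for 3820528 to 0.96 for 3820544, with a median of 0.09. PDE4B (29 probesets) was dim, with 3 above the median level, and ran from −0.60 for 2340546 to 0.41 for 2340647. The 34 PDE4C probesets, which carry that symbol alone, ran from −0.58 for 3854773 to 0.43 for 3854809 with a median of 0.04. PDE7A (18 probesets) ran from −0.48 for 3138473 to 0.64 for 3138496. The ranges of these cAMP enzymes were all under 2-fold, whereas PDE4D spanned −2.24 to 2.20.

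PDE8A (31 probesets) kept the narrowest range, from −0.53 for 3606089 to 0.33 for 3606133. PDE8B (24 probesets) ran from −0.76 for 2816695 to 0.47 for 2816732, and PDE9A (23 probesets) from −0.61 for 3922861 to 0.38 for 3922883. None of the probesets named in these 7 genes had an adjusted p under 0.05, the smallest being 0.153.

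Other genes of the cAMP pathway were taken from 5 lists (81 genes), of which 58 were found under a single symbol and the others were not analysed here. Of the 58, 1 was called higher and 2 lower, against 1.94% and 2.04% of all clusters, and 11 were higher and 11 lower at an adjusted p under 0.05, against 10.5% and 19.8% of all clusters. Their median change was 0.06 beside −0.00 over all clusters. ADCY1, an adenylyl cyclase that makes cAMP, went from 7.47, 7.73, 7.96 and 7.79 to 6.35, 6.33, 6.30 and 6.44 (−1.38, SE 0.10, adjusted p = 1.7e-07, limma). PKIB, an inhibitor of protein kinase A, fell from 6.54, 6.84, 6.98 and 6.84 to 5.45, 5.40, 5.43 and 5.61 (−1.33, SE 0.10, adjusted p = 2.5e-07). NR4A1, a nuclear receptor induced by cAMP in many cells, rose from 6.47, 6.40, 6.35 and 6.59 to 7.84, 7.79, 7.89 and 7.86 (1.39, SE 0.08, adjusted p = 1.7e-08). These 3 genes had tight groups that stood apart on every array.

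Among phosphodiesterases outside the members, 11 of 15 were measured and 0 called. PDE3A, the paralog of PDE3B, had the highest change, 0.64 (SE 0.13, adjusted p = 0.0013, limma), from 3.85, 4.11, 3.64 and 3.63 to 4.49, 4.57, 4.60 and 4.15. It was a dim cluster, at the 16.5th percentile of all clusters. PDE6D, a prenyl-binding protein named for its place in the retinal enzyme, had the lowest, −0.55 (SE 0.11, adjusted p = 0.0012). So the PDE3 paralogs had changes of opposite sign, PDE3A at 0.64 and PDE3B at −0.48, both under 2-fold, and the difference between them was not tested. These 2 listed genes, PDE3A and PDE6D, were the ones at an adjusted p under 0.05.

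Of the scaffolds and partners of PDE4 and protein kinase A, 10 of 17 were measured and 0 called. AKAP1, an anchoring protein of mitochondria, was highest with 0.89 (SE 0.09, adjusted p = 3.9e-06, limma), and ARRB1, a beta-arrestin that can bring PDE4D to receptors, was lowest with −0.65 (SE 0.12, adjusted p = 8.7e-04). At an adjusted p under 0.05, 5 of these 10 were higher and 2 lower, against 10.5% and 19.8% of all clusters.

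On chromosome 5, 7 of 11 listed neighbours were measured. PLK2, a stress-regulated kinase on the downstream side of PDE4D, was the 1 called gene, against 1.94% of all clusters called higher and 2.04% lower. It went from 7.25, 7.70, 7.76 and 7.65 to 6.18, 6.43, 6.34 and 5.98 (−1.36, SE 0.12, adjusted p = 1.7e-06, limma). GAPT and RAB3C lie between PLK2 and PDE4D. They changed by −0.10 (SE 0.12, adjusted p = 0.626, limma) and 0.03 (SE 0.13, adjusted p = 0.894). DEPDC1B, the next gene past PART1, changed by −0.22 (SE 0.12, adjusted p = 0.188).

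The gene-level clusters whose values followed those of PDE4D most closely over the 8 arrays were DECR1 (Pearson's r = 0.990), LPGAT1 (0.981) and TMEM237 (0.979), with changes of −0.19, −0.46 and −0.37. Those most like PART1 were NCAPD3 (1.00 after rounding), KLK2 (0.999) and TMPRSS2 (0.999), with changes of 4.43, 2.54 and 2.57. These correlations are a description: all clusters share the same 8 arrays and the contrast between media sets most of each value.

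The cell identity and the arrays were checked against markers. Of 21 listed markers 11 were found under a single symbol. The 4 luminal ones found, of 9 listed, lay between 8.58 and 12.3 on every array, while the 2 leukocyte markers lay between 2.20 and 3.46. Summed levels of the luminal ones were 39.8 to 40.2 in steroid-deplete medium and 46.0 to 46.8 after R1881. KLK3, KLK2 and TMPRSS2 changed by 1.82, 2.54 and 2.57 and HOXB13 by −0.44, so these levels moved with the treatment. The 4 stromal markers lay between 2.77 and 6.69, with summed levels of 20.6 to 21.3 in steroid-deplete medium and 20.9 to 21.1 after R1881. The neuroendocrine marker CHGA lay between 4.24 and 4.53, and no basal marker was found under a single symbol. The median of all clusters was 6.33 to 6.40 on the steroid-deplete arrays and 6.22 to 6.31 on the R1881 arrays. Arrays give no count of molecules, and their number limits the precision.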

How the data were processed

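RNA of LNCaP cells, 4 steroid-deplete and 4 R1881 samples, was labelled by the authors with a whole transcript sense target assay after ribosomal RNA reduction. The deposited gene-level values were made by the authors with RMA (core probes, quantile normalisation, antigenomic background) and are on the log2 scale, as are the deposited exon-level RMA values. The deposited Iter-PLIER values, gene-level and exon-level, are intensity on a linear scale; Iter-PLIER repeats the PLIER summary on the probes that track each other best. For the exon-level ones the labels give Iter-PLIER and the methods PLIER. Clusters were limited by the authors to those with enough core probes, and hg18 is the build in the submitters' processing notes. Array annotation gave the symbols; no probe position was used.

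Groups came from the sample labels. Changes were tested with limma 3.58.1 in R 4.3.3 with matrixStats 1.5.0 and Benjamini-Hochberg adjustment over all features, with no covariate. Iter-PLIER values were taken as log2(value + 16). Differences between members were tested by exact permutation. Figures were drawn with Python and matplotlib. The fits were tested on simulated data. The members and the gene lists were chosen with earlier results of these data known.

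Named were all members, each list's called genes or otherwise its highest and lowest, the 3 clusters most like PDE4D and PART1, the 6 highest and 6 lowest probesets of these genes and those called relative to the gene, and the highest and lowest probeset of each other member. Other probesets and genes named were chosen after their values were seen.

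Replicate numbers did not pair the samples: same-numbered arrays correlated at −0.10 to 0.10 after removal of group means, with 0 of 4 pairs over 0.1. Alternatives were Iter-PLIER values, the methods' t-test, trend and robust variances, a filter on dim features, median centring, quantile normalisation, a replicate block, other thresholds, pseudocounts and gene values, and removal of single arrays. One more, in which R1881 replicate 4 and steroid-deplete replicate 1 were both removed, was chosen after seeing the data. Detection above background was not used here.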

Additional observations from a re-analysis of the deposited data

Results flagged for a closer look

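In groups of 4 arrays, 8 of 102 groups held 1 array far from the other 3 by Dixon's test at 95%, a test that chance passes in about 1 group in 20. At gene level PDE9A on R1881 replicate 3 read 7.53 against 7.28 on the others. Among PDE4D probesets, 2858166 read 7.05 on steroid-deplete replicate 2 against 6.87 on the others, and 2858368 read 5.63 on R1881 replicate 2 against 6.49 to 6.57. PART1 probeset 2811152 read 7.79 on steroid-deplete replicate 1 against 8.18 to 8.25. PDE4A probeset 3820544 read 5.90 on R1881 replicate 1 against 5.21 to 5.30, and PDE4B probeset 2340647 read 5.61 on R1881 replicate 4 against 4.90 to 4.96. PDE4C probeset 3854809 read 6.23 on steroid-deplete replicate 3 against 6.68 to 6.74. PDE9A probeset 3922861 read 4.91 on R1881 replicate 3 against 3.84 to 4.03. Of these, 1 probeset belongs to a called change (2811152 of PART1), which was called with any 1 array left out.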

How the results depend on the processing

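Of the 10 members 1 was called at gene level, and 3 were (PART1, PDE4D and PDE3B) both with Iter-PLIER values and at an adjusted p under 0.05 with no fold limit; the count was 1 to 1 with any 1 array left out. Of the cAMP pathway genes 3 were called and 6 with Iter-PLIER values, the added ones being ADCY7, AKAP12 and PER1. Calls rose over all 16309 clusters too, from 317 higher and 333 lower to 444 higher and 924 lower with Iter-PLIER values. At an adjusted p under 0.05 with no fold limit, 10.5% of all clusters were higher and 19.8% lower. Of the member probesets 10 were called, 19 at an adjusted p under 0.05 with no fold limit, and 7 to 10 with 1 array left out. The number called relative to the gene depended most on the processing: it was 8, and became 17, 1 and 16 with Iter-PLIER values and pseudocounts of 16, 1 and 64, 3 with the median of the probesets as gene value, 13 at a p of 0.001 or less, 0 to 1 with 1 array left out, and 0 without steroid-deplete replicate 1 and R1881 replicate 4 together. The cause was not tested. For the Iter-PLIER and median settings and the repeats with arrays left out, the share called over all tested probesets was not analysed here. The difference in change between PDE4D and PART1 lay between −3.15 and −3.04 with 1 array left out and was −4.08 with Iter-PLIER values.

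With replicate number as a block, the gene-level call of PART1 stood (1 call) and 9 probesets were called, but 0 relative to the gene; probeset 2858346 gained its call (adjusted p = 0.0038) and 2858433 lost it (0.0059). The numbers share only a label, as same-numbered arrays did not vary together, and 1 of 8 arrays correlated best with its own number.

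The values whose direction changed were all uncalled. With Iter-PLIER values PDE4B was 0.054, the PDE4C and CIST1 cluster 0.059, and the difference of PDE4D from PDE3B −0.20; probesets were −0.017 (2858167), −0.026 (2858156), −0.15 (2811170), −0.031 (2811168), −0.067 (3321521) and −0.086 (2816732). Median centring, which moved all clusters by 0.10, gave PDE4B 0.082, the PDE4C and CIST1 cluster 0.097, PDE7A 0.074, PDE8A 0.081, PDE8B 0.033 and 2811171 0.028. Quantile normalisation gave 0.043 for that cluster, PDE7A 0.058, PDE8A 0.084 and 2811171 0.019. Leaving out steroid-deplete replicate 1 and R1881 replicate 4 together gave 0.051 for that cluster, PDE8A 0.00965, PDE8B 0.00716 and 2811168 −0.00922. With 1 array left out, PDE4B lay between −0.085 and 0.024, that cluster between −0.038 and 0.049, PDE7A between −0.094 and 0.022, PDE8A between −0.062 and 0.026, 2811171 between −0.20 and 0.23, 2811170 between −0.064 and 0.29, 2811168 between −0.064 and 0.33 and 2811163 between −0.067 and 0.60. The share of higher among called clusters was 48.8%, 59.0% after median centring and 32.5% with Iter-PLIER values.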
